A study of Mus musculus with 6 samples.

Results

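The genes described here make up the machinery with which a cell folds, checks and exports secreted and membrane proteins. A list of 56 genes was taken by name from the array's annotation, and 55 of them had a probe set that reads a single gene. Sec61g, a subunit of the translocation channel, had none and has no value here, and Ero1lb is given under its current symbol Ero1b. The members were divided by role into 14 chaperones and other folding factors, 9 enzymes of oxidative folding, 8 genes of ER-associated degradation (ERAD), 17 measured genes of the translocon, signal peptidase and oligosaccharyltransferase (of 18 listed), and 7 genes of vesicle transport. They stand among 18193 genes tested.

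Expression was measured on 6 Affymetrix arrays of splenic B cells, 1 array per mouse. In 3 mice both copies of Crebbp, which encodes the histone acetyltransferase CBP, were deleted (CBPΔ/Δ x EµBcl2, here deleted 1 to 3), and in the other 3 both copies were floxed but intact (CBPF/F x EµBcl2, here floxed 1 to 3). All 6 mice also had a transgene of the survival gene Bcl2, driven in B cells by the Eµ enhancer. No group without the transgene was measured, and the question is what loss of Crebbp adds to it. The recombinase, the age of the mice and their sex are not given in the sources used here. The spleen cells came from frozen viable stocks, and after thawing B cells were kept by removing cells that carry CD43, a surface protein found on plasma cells, T cells and myeloid cells but on few resting B cells. All values are log2 intensities unless named as folds, and a positive difference means a higher level in the Crebbp-deleted samples.

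Proteins bound for the cell surface or for secretion are threaded into the endoplasmic reticulum (ER) through the Sec61 channel, trimmed by signal peptidase and given sugar chains by oligosaccharyltransferase. Chaperones such as BiP (Hspa5) and disulfide isomerases then fold them, ERAD returns failed products to the cytosol for destruction, and COPII vesicles carry the finished proteins to the Golgi. When unfolded proteins build up, the sensors IRE1 (Ern1), ATF6 and PERK (Eif2ak3) start the unfolded protein response, and IRE1 activates the transcription factor XBP1. In the B lineage the same machinery is expanded when a B cell becomes an antibody-secreting plasma cell, a step that requires XBP1.

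Many promoters of this machinery carry the ER stress element, CCAAT followed after 9 bases of any kind by CCACG, to which ATF6 binds together with the CCAAT factor NF-Y. RefSeq promoter windows (GRCm38.p6, 250 bases before to 50 after each start of transcription) were at hand for 43 of the 55 measured members. The element, searched on both strands, was present in the windows of 10 of these members (23.3%), against 37 of all 27025 genes with a window (0.137%). The 10 were Hspa5, Hsp90b1, Calr, Canx, Creld2, Dnajc3, Pdia6, Ero1b, Derl3 and Syvn1. The upstream stretch of Hspa5 and the elements of 6 other members are shown because members with the same element differed widely in how far the groups lay apart, as described further on. Each is written 5′ to 3′ in the direction of the element, and capitals mark CCAAT and CCACG.
Hspa5 (chr2:34771890-34772089, + strand, 200 bases that end just before the start): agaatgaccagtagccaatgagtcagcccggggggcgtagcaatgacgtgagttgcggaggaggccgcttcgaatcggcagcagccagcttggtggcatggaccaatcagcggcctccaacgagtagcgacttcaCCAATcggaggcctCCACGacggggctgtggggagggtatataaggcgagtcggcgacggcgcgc
Derl3 (chr10:75893230-75893272, - strand): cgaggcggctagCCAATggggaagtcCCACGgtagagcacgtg
Creld2 (chr15:88819508-88819550, - strand): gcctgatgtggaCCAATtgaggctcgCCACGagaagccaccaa
Dnajc3 (chr14:118937815-118937857, + strand): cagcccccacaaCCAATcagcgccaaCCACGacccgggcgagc
Calr (chr8:84847063-84847105, + strand): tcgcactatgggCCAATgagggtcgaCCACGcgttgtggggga
Canx (chr11:50325788-50325830, - strand): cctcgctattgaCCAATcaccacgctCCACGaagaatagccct
Ero1b (chr13:12565670-12565712, - strand): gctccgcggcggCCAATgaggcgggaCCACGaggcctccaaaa

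A second form, ATTGG followed after 1 base by CCACG, was found in the windows of Herpud1 and Dnajb11, 2 of 43 members (4.65%) against 12 of 27025 genes (0.0444%). The unfolded protein response element TGACGTGG, which XBP1 can bind, was found in Txndc5, Txndc11 and Sec24d, 3 of 43 members (6.98%) against 193 of 27025 genes (0.714%). These matches describe letters in a window and show no binding. The elements of Herpud1, Txndc5 and Sec24d are shown with the motif in capitals, since the values of these genes are given below. The Txndc5 and Sec24d windows belong to starts inside the annotated extent of the gene, so other transcripts of these genes start upstream of them.
Herpud1 (chr8:94386365-94386399, + strand): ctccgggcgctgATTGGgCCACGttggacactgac
Txndc5 (chr13:38528033-38528064, - strand): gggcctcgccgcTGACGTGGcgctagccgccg
Sec24d (chr3:123267458-123267489, + strand): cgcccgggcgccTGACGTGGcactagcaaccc

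Crebbp itself stood lower in the deleted samples, with 9.59, 9.41 and 9.35 in deleted 1, 2 and 3 against 10.04, 9.87 and 9.95 in floxed 1, 2 and 3 (chromosome 16, 4081334 to 4213957). The groups did not overlap, and the difference was −0.50 ± 0.10 (SE, adjusted p = 0.078). The other 3 probe sets of Crebbp had differences of −0.53, −0.79 and −0.97, also without overlap, and the second of these passed over all probe sets (adjusted p = 0.0265). With the mean of its probe sets Crebbp passed too, at −0.70 (adjusted p = 0.039). The B cell markers Cd79a and Ms4a1 were present in every sample, and the whole B cell list is given with the other cell types below. The medians of the arrays ran from 4.27 to 4.30. Deleted 3 stood apart from the other arrays, with a mean correlation of 0.983 with them, against 0.987 to 0.989 for the other 5. Xist and Kdm5d marked deleted 1, deleted 3 and floxed 1 as male and deleted 2, floxed 2 and floxed 3 as female. Nothing in the files gives a scan date or another batch, and the labels give 1 mouse per array.

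Most of the ER machinery stood higher in the Crebbp-deleted B cells, but no single member passed the test over all genes. Of 55 members 49 were higher and 6 lower, while 53.4% of all genes were higher. The median difference over the members was 0.31, a 1.24-fold higher level, against 0.01 over all genes. With limma 0 members passed at an adjusted p under 0.05, where 0.781% of all genes did. At an unadjusted p under 0.05 19 members were higher and 0 were lower, where 7.96% of all genes were higher. In 29 members (52.7%) the 3 deleted samples lay above the 3 floxed samples, against 11.2% of all genes, and in 0 members did they lie below. The members were chosen with earlier results of these data known, so these counts describe the list and do not test it.

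The size of the difference came in large part from deleted 3, which had the highest value of the 6 samples in 51 of 55 members, against 26.4% of all genes. The exceptions were Canx, Ero1b, Ssr3 and Dad1. Relative to the floxed mean, the mean over all members stood at 0.18, 0.24 and 0.88 in deleted 1, 2 and 3, against 0.01, −0.04 and 0.04 in floxed 1, 2 and 3. Deleted 1 and 2 thus lay above all floxed samples by a margin larger than the floxed spread, and deleted 3 lay far above both. Without deleted 3, 42 members were higher and 13 lower, the median difference was 0.13 and limma again called 0 members, where 0.341% of all genes passed. In that comparison 16 members were higher at an unadjusted p under 0.05 (6.24% of all genes) and 0 lower. The 2 remaining deleted samples lay above the floxed samples in 29 members (15.1% of all genes) and below them in 4, Calr, Tram1, Dad1 and Ostc. Single floxed samples moved the count too: 7 members were higher at an unadjusted p under 0.05 without floxed 1 (5.85% of all genes) and 12 without floxed 2 (8.45% of all genes). With the sex of the mouse as a term the number was 11 (7.3% of all genes), with a median difference of 0.24. In bulk RNA, a higher level per cell and a larger share of cells rich in these transcripts cannot be told apart.

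**Figure D1:**
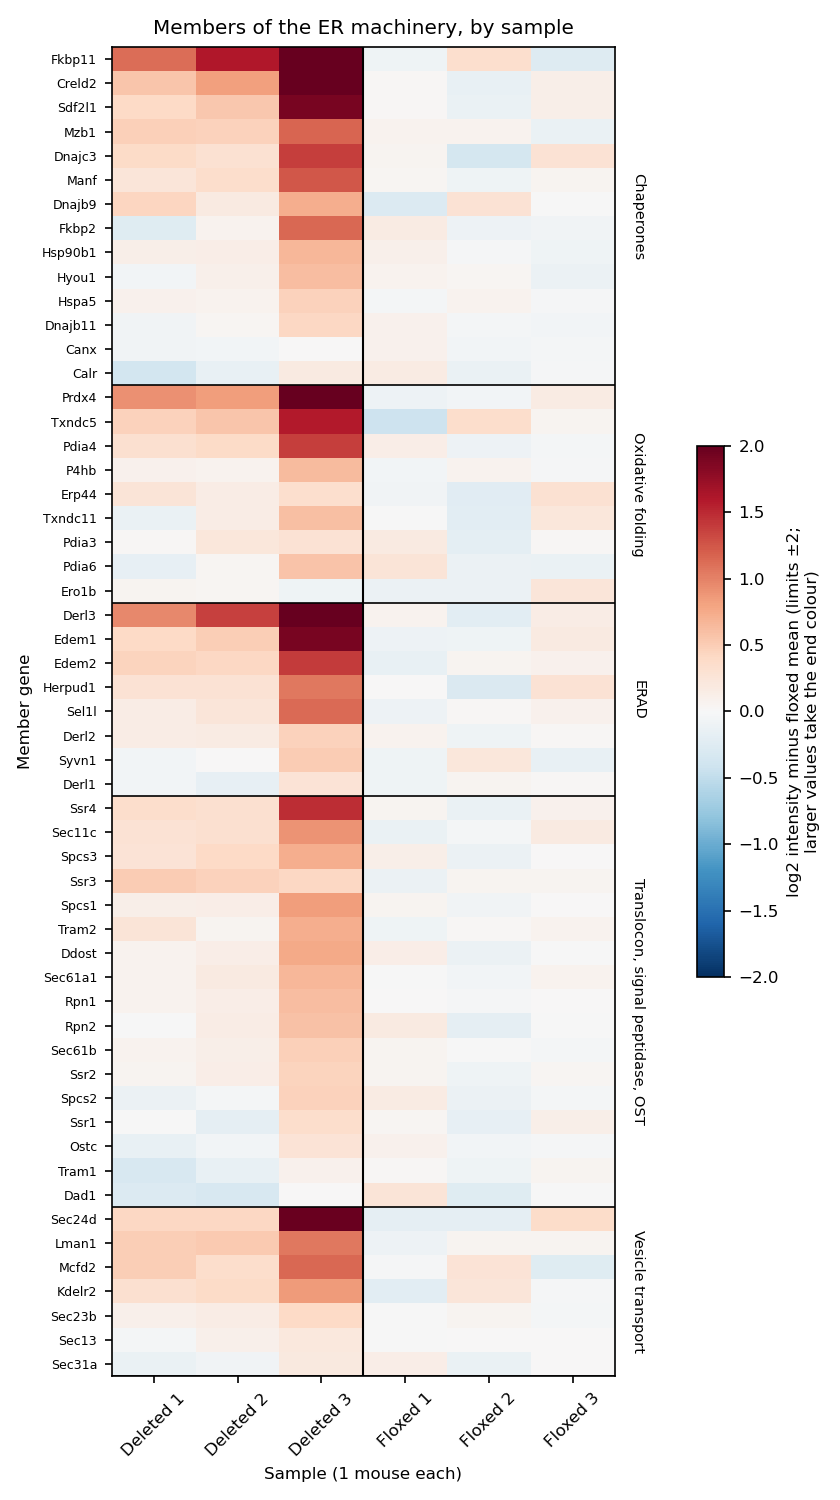
Heat map of 55 members (rows, grouped by role and ordered by difference) in 6 samples (columns, Crebbp-deleted left, Crebbp-floxed right). Colour gives log2 intensity minus the gene's floxed mean; deleted 3 is the highest sample in 51 members, and Fkbp11, Creld2, Prdx4 and Derl3 are also clearly higher in deleted 1 and 2.

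Among the 14 chaperones and folding factors 12 were higher and 2 lower, with a median difference of 0.38, which was 0.21 without deleted 3. At an unadjusted p under 0.05 6 were higher (7.96% of all genes), and 7 lay higher without overlap between the groups (11.2% of all genes). The widest gap was in Fkbp11, a prolyl isomerase of the ER that is abundant in secretory cells (chromosome 15, 98724368 to 98728198). It had 6.09, 6.58 and 7.53 in deleted 1, 2 and 3 against 4.89, 5.32 and 4.72 in floxed 1, 2 and 3. The groups were separate and the difference of 1.76 ± 0.35 (SE) was a 3.38-fold higher level, short of the threshold (adjusted p = 0.073). Without deleted 3 it was 1.36 (adjusted p = 0.088). The other probe sets of Fkbp11 had differences of only 0.09 and 0.01. Mzb1, a folding factor of immunoglobulin M in marginal zone B cells, B-1 cells and plasma cells, had 11.77, 11.77 and 12.47 in the deleted samples against 11.37, 11.37 and 11.17 in the floxed samples. All deleted samples lay above the floxed ones, with a difference of 0.70 ± 0.20 (SE, adjusted p = 0.162).

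Creld2, an ER stress-induced protein with isomerase activity, had 8.49, 8.76 and 10.58 in the deleted samples against 7.97, 7.80 and 8.07 in the floxed samples. Deleted 3 stood 6.19-fold above the floxed mean and the other deleted samples much less, so the difference of 1.33 had an SE of 0.49 (adjusted p = 0.264), and without deleted 3 it was 0.68. Sdf2l1, which works with BiP and its DnaJ partners, had 8.65, 8.80 and 10.15 in the deleted samples against 8.28, 8.12 and 8.37 in the floxed samples. Its groups were also separate, with a difference of 0.94 ± 0.36 (SE, adjusted p = 0.285). The stress-induced secreted factor Manf and the DnaJ partners of BiP Dnajb9 and Dnajc3 had differences of 0.61, 0.45 and 0.69 (adjusted p = 0.317, 0.321 and 0.346). Of these Dnajb9 overlapped between the groups.

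The general chaperones of the ER lumen had smaller differences. Hspa5, which encodes BiP, had 12.30, 12.28 and 12.68 in deleted 1, 2 and 3 against 12.17, 12.29 and 12.19 in floxed 1, 2 and 3. Deleted 2 lay within the floxed range, and the difference was 0.20 ± 0.13 (SE, adjusted p = 0.514), or 0.07 without deleted 3. A second probe set of Hspa5 gave 11.61, 11.58 and 12.05 in the deleted samples against 11.33, 11.44 and 11.32 in the floxed samples, a difference of 0.38 without overlap (adjusted p = 0.268 over all probe sets). The third had a difference of 0.17 with overlap. Hsp90b1, which encodes the ER member of the Hsp90 family, had 11.64, 11.66 and 12.18 in the deleted samples against 11.62, 11.50 and 11.44 in the floxed samples. The groups touched without overlapping, with a difference of 0.31 ± 0.16 (SE, adjusted p = 0.412). Its other probe set had a difference of 0.43, also without overlap. The calcium-binding lectin chaperone Calr had 11.04, 11.26 and 11.58 in the deleted samples against 11.56, 11.26 and 11.38 in the floxed samples. It had the lowest difference of this class, −0.11 ± 0.15 (SE, adjusted p = 0.807), and its other probe sets each had a difference of −0.02. The membrane-bound lectin chaperone Canx, the Hsp70-like Hyou1, the DnaJ partner Dnajb11 and the prolyl isomerase Fkbp2 had differences of −0.04, 0.22, 0.13 and 0.32, all with overlapping groups. In Fkbp2 the sign turned without deleted 3, to −0.09, as it did in Dnajb11, to −0.01.

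Among the 9 enzymes of oxidative folding 8 were higher and 1 lower, with a median difference of 0.24, which was 0.13 without deleted 3. Higher values reached an unadjusted p under 0.05 in 3 (7.96% of all genes), and the same number lay higher without overlap between the groups (11.2% of all genes). Prdx4, the peroxiredoxin of the ER, which uses peroxide to form disulfides (chromosome X, 155323918 to 155342272), had 8.08, 8.004 and 9.56 in the deleted samples against 7.06, 7.11 and 7.32 in the floxed samples. The groups were separate and the difference was 1.38 ± 0.38 (SE), a 2.61-fold higher level (adjusted p = 0.161). Without deleted 3 the difference was 0.88 with an adjusted p of 0.055. The other 3 probe sets had differences of 1.39, 0.79 and 0.0006, the last at a level below the median of all probe sets.

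The disulfide isomerase Txndc5 had 9.42, 9.50 and 10.54 in the deleted samples against 8.55, 9.30 and 9.02 in the floxed samples. Its difference was 0.86 ± 0.32 (SE, adjusted p = 0.266), with deleted 1 only just above floxed 2. Pdia4, another isomerase of this family, had 9.90, 9.96 and 10.96 in the deleted samples against 9.71, 9.48 and 9.54 in the floxed samples. Its groups did not overlap, and the difference was 0.70 ± 0.27 (SE, adjusted p = 0.286). Erp44, which retains unfinished proteins and the oxidase Ero1 in the early secretory pathway, had 9.60, 9.49 and 9.69 in the deleted samples against 9.27, 9.12 and 9.65 in the floxed samples, with overlap. The isomerases P4hb, Pdia3 and Pdia6 and the thioredoxin-like Txndc11 had differences of 0.26, 0.18, 0.15 and 0.21, and the groups overlapped in each. Ero1b, an oxidase that recharges the isomerases, had 9.89, 9.86 and 9.74 in the deleted samples against 9.71, 9.71 and 10.08 in the floxed samples, a difference of −0.0004 ± 0.12 (SE).

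All 8 ERAD genes stood higher in the deleted samples, and their median difference was 0.53, close to the 0.52 of vesicle transport, and 0.25 without deleted 3, where vesicle transport had 0.35. Of the 8, 3 were higher at an unadjusted p under 0.05 (7.96% of all genes), and 6 lay higher without overlap between the groups (11.2% of all genes). Derl3, a Derlin of secretory cells that takes part in moving misfolded glycoproteins out of the ER (chromosome 10, 75893398 to 75895941), had 7.31, 7.71 and 9.77 in the deleted samples against 6.41, 6.13 and 6.50 in the floxed samples. Its difference of 1.91 ± 0.57 (SE), a 3.77-fold higher level, was the widest of all members (adjusted p = 0.184). Deleted 3 stood 10.7-fold above the floxed mean, and without it the difference was 1.16 (adjusted p = 0.068). The other Derlins differed less, Derl2 by 0.25 and Derl1 by 0.02, and Derl1 turned to −0.12 without deleted 3. The other probe set of Derl2 had a difference of −0.22, also without overlap.

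Edem2 and Edem1, which mark misfolded glycoproteins for degradation by trimming mannose, followed with smaller gaps. Edem2 had 7.88, 7.84 and 8.82 in the deleted samples against 7.28, 7.49 and 7.51 in the floxed samples, a difference of 0.75 ± 0.25 (SE, adjusted p = 0.231). The other of its 2 probe sets was lower, by −0.06 and at a level below the median of all probe sets. Edem1 had 8.58, 8.67 and 10.08 in the deleted samples against 8.08, 8.09 and 8.36 in the floxed samples, a difference of 0.93 ± 0.37 (SE, adjusted p = 0.303). In both genes deleted 1 and 2 were close to each other and above every floxed sample. Herpud1, a scaffold of the ERAD ligase complex, had 10.14, 10.14 and 10.89 in the deleted samples against 9.85, 9.56 and 10.14 in the floxed samples. Deleted 1 and floxed 3 were nearly equal, and the difference was 0.55 ± 0.24 (SE, adjusted p = 0.340). The ligase Syvn1 and its partner Sel1l had differences of 0.15 and 0.51, with the groups separate in Sel1l alone, where all 5 probe sets were higher. Derl1 had 9.70, 9.60 and 10.05 in the deleted samples against 9.69, 9.83 and 9.79 in the floxed samples, with overlap.

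Of the 17 measured genes of translocation, signal cleavage and glycosylation 15 were higher and 2 lower. The median difference was 0.27, which was 0.10 without deleted 3. Of the 17, 4 were higher at an unadjusted p under 0.05 (7.96% of all genes), and 8 lay higher without overlap between the groups (11.2% of all genes). Ssr3, a subunit of the translocon-associated TRAP complex (chromosome 3, 65379657 to 65392553), had 9.87, 9.82 and 9.78 in deleted 1, 2 and 3 against 9.24, 9.42 and 9.42 in floxed 1, 2 and 3, so that deleted 3 was the lowest of the deleted samples, as it was in Ero1b. The difference was 0.46 ± 0.09 (SE), a 1.38-fold higher level, with an adjusted p of 0.074 and the smallest SE among the members with an unadjusted p under 0.05. It was 0.48 without deleted 3 (adjusted p = 0.161). Its second probe set had a difference of 0.55 (adjusted p = 0.0895 over all probe sets), and there deleted 3 was the highest sample. With the mean of both probe sets Ssr3 passed the test, at 0.50 with an adjusted p of 0.0445.

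The other TRAP subunits did not move alike. Ssr4 had 10.18, 10.15 and 11.30 in the deleted samples against 9.87, 9.68 and 9.92 in the floxed samples, a difference of 0.72 ± 0.29 (SE, adjusted p = 0.315), but 2 of its 3 probe sets were lower. Ssr2 and Ssr1 had differences of 0.21 and 0.05. The signal peptidase subunit Spcs3 had 9.12, 9.24 and 9.58 in the deleted samples against 8.97, 8.73 and 8.85 in the floxed samples, with no overlap and a difference of 0.47 ± 0.14 (SE, adjusted p = 0.177). Sec11c, a catalytic subunit of signal peptidase, had 10.22, 10.25 and 10.82 in the deleted samples against 9.79, 9.88 and 10.12 in the floxed samples. Its groups were separate too, with a difference of 0.50 ± 0.18 (SE, adjusted p = 0.255), and 1 of its 2 probe sets was lower. Spcs1 and Spcs2 of the same complex had differences of 0.37 and 0.10.

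The subunits of the channel and of the glycosylation enzyme had differences of 0.32 or less. Sec61a1, the pore of the translocon, had 9.39, 9.50 and 9.99 in the deleted samples against 9.32, 9.27 and 9.40 in the floxed samples, a difference of 0.30 ± 0.16 (SE, adjusted p = 0.432). Deleted 1 lay within the floxed range. Sec61b, a small subunit of the channel, had a difference of 0.22, without overlap between the groups. The oligosaccharyltransferase subunits Rpn1, Rpn2, Ddost and Ostc had differences of 0.27, 0.25, 0.32 and 0.02, with the groups separate in Rpn1 alone. Dad1, a further subunit of that enzyme, had 10.31, 10.27 and 10.60 in the deleted samples against 10.85, 10.35 and 10.58 in the floxed samples. It had the lowest difference of all members, −0.20 ± 0.15 (SE, adjusted p = 0.610), and both of its probe sets were lower. Of the translocating chain-associated proteins Tram2 had a difference of 0.35 and Tram1 one of −0.13.

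Of the 7 genes of vesicle transport 6 were higher and 1 lower, with a median difference of 0.52, which was 0.35 without deleted 3. At an unadjusted p under 0.05 3 were higher (7.96% of all genes), and 5 lay higher without overlap between the groups (11.2% of all genes). Lman1, the lectin ERGIC-53 that carries glycoproteins out of the ER, had 7.71, 7.75 and 8.28 in the deleted samples against 7.12, 7.27 and 7.28 in the floxed samples. The groups were well separate and the difference was 0.69 ± 0.16 (SE), a 1.61-fold higher level (adjusted p = 0.114), though 2 of its 5 probe sets were lower. These differed by −0.01 and −0.33, the first at a level below the median of all probe sets. The remaining sets were higher without overlap, by 0.80 and 0.58. Mcfd2, which forms a cargo receptor with Lman1, had 8.09, 7.96 and 8.75 in the deleted samples against 7.58, 7.87 and 7.36 in the floxed samples. Both partners of this receptor thus stood higher in all deleted samples, by 0.66 ± 0.22 in Mcfd2 (SE, adjusted p = 0.231). Kdelr2, a receptor that returns escaped chaperones from the Golgi, had 8.82, 8.89 and 9.36 in the deleted samples against 8.30, 8.75 and 8.48 in the floxed samples, a difference of 0.52 ± 0.18 (SE, adjusted p = 0.234).

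The coat of COPII vesicles was divided. Sec24d, a cargo-binding coat subunit, had 6.48, 6.47 and 8.05 in the deleted samples against 5.89, 5.89 and 6.43 in the floxed samples. The difference of 0.93 ± 0.41 (SE, adjusted p = 0.354) came mostly from deleted 3, and was 0.41 without it. Sec23b, its partner in the inner coat, had a difference of 0.22. The outer coat pair hardly differed: Sec13 by 0.09, and Sec31a by −0.01 ± 0.12 (SE), with 7.01, 7.07 and 7.34 in the deleted samples against 7.27, 7.01 and 7.15 in the floxed samples.

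**Figure D2:**
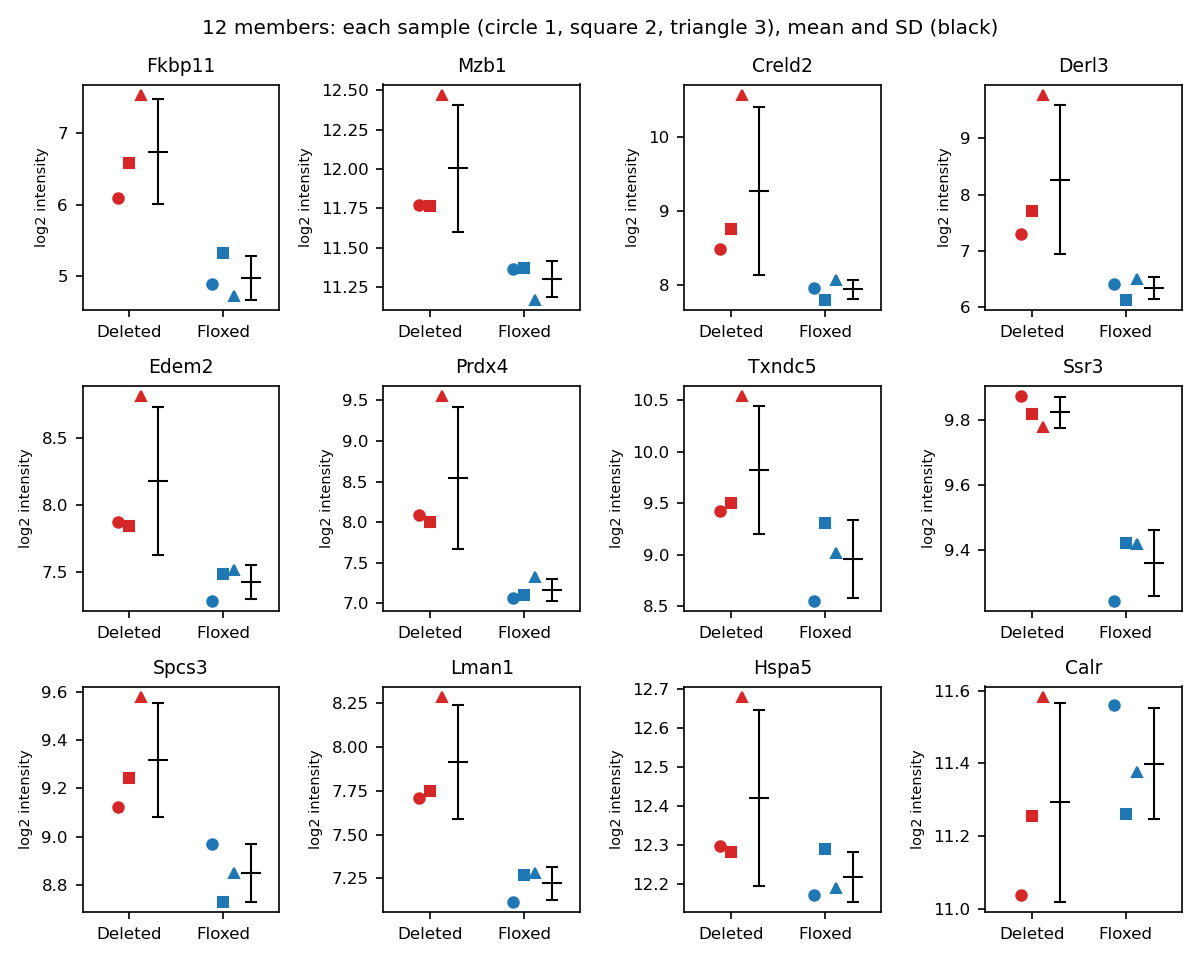
Log2 intensity (vertical axes, which do not start at 0) of 12 members in each sample, Crebbp-deleted left and Crebbp-floxed right, with the mean and SD of each group in black. Hspa5 and Calr overlap between the groups and the other members shown lie apart, Ssr3 with deleted 3 lowest of the deleted samples.

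**Figure D3:**
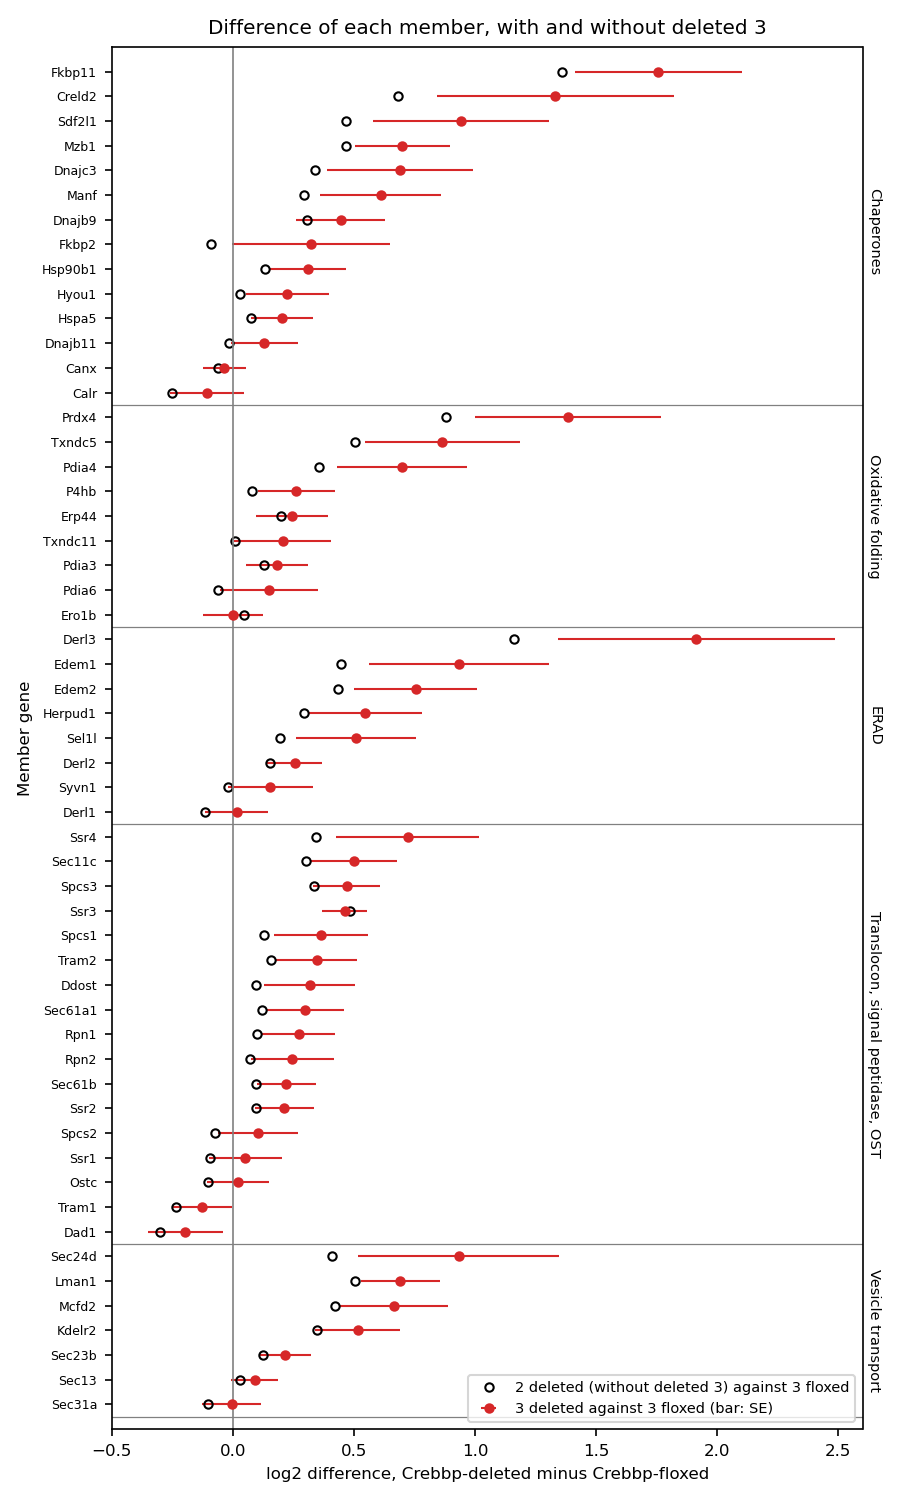
Log2 difference of each of 55 members, Crebbp-deleted minus Crebbp-floxed, with all samples (filled points, bars show SE) and without deleted 3 (open circles). The median difference is 0.31 with all samples and 0.13 without deleted 3, and Fkbp11 and Derl3 stay above 1 in both.

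Some members had several probe sets, and these did not always point the same way. The 55 members had 122 probe sets that read a single gene, of which 92 were higher in the deleted samples. The 67 probe sets that do not represent their gene had a median difference of 0.16, with 43 higher and 24 lower. Of the 67, 19 lay higher without overlap between the groups and 4 lay lower, in Derl2, Canx, Ssr1 and Spcs1. The sets that represent Derl2 and Spcs1 lay higher without overlap. The lower set of Spcs1 read below the median of all probe sets. Of the 36 members with more than 1 probe set, 19 had all of them on the same side and 17 were divided. In a fit over all 34945 such probe sets, 240 passed at an adjusted p under 0.05 and 0 of them belonged to a member.

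The differences were also listed by the elements in the promoter windows. The 10 members with the ER stress element had a median difference of 0.18 (range −0.11 to 1.91), and the 33 members whose window lacks it had one of 0.32 (range −0.20 to 1.76). Without deleted 3 these medians were 0.06 and 0.16. Derl3, Creld2, Dnajc3 and Hsp90b1 carry the element and had no overlap between the groups, while Hspa5, Calr, Canx, Pdia6, Ero1b and Syvn1 carry it and overlapped. The groups were thus separate in 4 of the 10 members with the element and in 18 of the 33 without it, against 11.2% of all genes. Txndc5, Sec24d and Txndc11, with the TGACGTGG element, had differences of 0.86, 0.93 and 0.21. Their median was 0.86, against 0.29 for the 40 members without it, and without deleted 3 these medians were 0.41 and 0.13. The 8 members with CACGTG in their window (8.09% of all genes with a window) had a median of 0.76, and the 35 without it had one of 0.26. Without deleted 3 these medians were 0.46 and 0.12. These figures are descriptions of few genes, and no test was made on them.

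Genes of the same pathway outside the list were counted in the same way. Of 13 sensors and factors of the unfolded protein response 11 were higher and 2 lower, with a median difference of 0.25, which was 0.21 without deleted 3. At an unadjusted p under 0.05 7 were higher (7.96% of all genes). None of the 13 passed limma's test over all genes. Ern1, the sensor kinase and nuclease IRE1, had 6.55, 7.03 and 8.03 in the deleted samples against 5.68, 5.95 and 5.91 in the floxed samples (difference 1.35 ± 0.33 SE, adjusted p = 0.131). Its target Xbp1 had 10.58, 10.76 and 11.80 in the deleted samples against 10.06, 10.32 and 10.02 in the floxed samples (0.91 ± 0.30 SE, adjusted p = 0.218). Both were separate between the groups.

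The secretory cell factor Bhlha15 and the membrane-bound factor Creb3l2 had differences of 1.31 and 1.26 (adjusted p = 0.167 and 0.212), both without overlap. Other sensors and PERK-arm genes were divided. Atf6 had a difference of 0.14, and Eif2ak3, the kinase PERK, one of −0.55 (adjusted p = 0.705 and 0.358), each with overlap. Atf6b, a relative of Atf6, had 7.74, 7.67 and 7.84 in the deleted samples against 7.46, 7.58 and 7.45 in the floxed samples, without overlap (difference 0.25, adjusted p = 0.262). Ppp1r15a and Ddit3, which are induced downstream of PERK, had differences of 0.53 and 0.43 (adjusted p = 0.272 and 0.323), with the groups separate in Ppp1r15a and overlapping in Ddit3. Atf4 and Trib3, of the same arm, had differences of 0.04 and 0.25 (adjusted p = 0.913 and 0.526), both with overlap.

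Of 18 other folding genes 12 were higher and 6 lower (median 0.17), of 15 other ERAD genes 13 and 2 (median 0.19), of 16 other translocation genes 13 and 3 (median 0.17), and of 27 other transport genes 20 and 7 (median 0.08). At an unadjusted p under 0.05 the numbers higher and lower were 5 and 2, 4 and 0, 1 and 1, and 4 and 0, in the same order. Over all 18193 genes they were 1448 (7.96%) and 1245. Over these 4 lists and the sensors and factors together, 69 of 89 were higher (77.5%), against 53.4% of all genes. The median difference of the 89 was 0.15, and 32.6% of them lay higher without overlap (11.2% of all genes). Without deleted 3, 62.9% of the 89 were higher (49.2% of all genes), with a median of 0.06. The numbers higher and lower in the 4 lists were then 10 and 8, 13 and 2, 10 and 6, and 13 and 14. The transport genes then had a median of −0.04. Among the 89, 1 gene passed limma's test over all genes, where 0.781% of all genes did. This was P4ha1, a prolyl hydroxylase of collagen folding, with 7.75, 7.33 and 7.19 in the deleted samples against 6.26, 5.99 and 6.52 in the floxed samples (difference 1.17 ± 0.19 SE, adjusted p = 0.047). The call was lost in many alternatives. The adjusted p lay between 0.0758 (without deleted 3) and 0.172 (without floxed 1) when any sample but floxed 3 was left out, and it was 0.105 with sex as a term, 0.051 over the brighter genes alone and 0.0523 with the mean of all probe sets. In P4ha1, unlike most members, deleted 3 was the lowest of the deleted samples. Sdf2, a paralog of Sdf2l1, and Sil1, the exchange factor of BiP, had differences of 0.57 and 0.65 (adjusted p = 0.093 and 0.148). In ERAD the deglycosylating enzyme Ngly1, the membrane protein Ubxn4 and the mannosidase Man1b1 had differences of 0.41, 0.33 and 0.46. In translocation the signal receptor Srpr, the BiP partner Sec63 and the glycosylation subunit Tusc3 had differences of 0.38, 0.28 and −0.29. In transport Kdelr1, Sec23a and Bet1 had differences of 0.37, 0.31 and 0.49.

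The mean over the plasma cell markers stood higher in the deleted samples, like that of the ER machinery, and was highest in deleted 3. Deleted 3 also had the highest mean in the list of unfolded protein response sensors and factors above. The same held for the macrophage, heat shock and granulocyte, erythroid and platelet lists given further on. Of 11 measured plasma cell markers (13 listed, Xbp1 among them) 9 were higher and 2 lower, and the median difference was 0.77. Limma called 1 of them over all genes, where it called 0.781% of all genes. The 2 lower markers were Pou2af1 (−0.19, without overlap) and Tnfrsf13b (−0.12, with overlap). Irf4 differed by 0.19, with deleted 3 the lowest deleted sample at 9.16, within the floxed range of 9.06 to 9.42. Their summed intensity was 12717, 13370 and 18015 in deleted 1, 2 and 3, against 8993, 9102 and 8108 in floxed 1, 2 and 3. Relative to the floxed mean, the mean of the list stood at 0.54, 0.66 and 1.29 in the deleted samples. Jchain, which links IgM and IgA chains, had 12.54, 12.61 and 12.99 in the deleted samples against 11.23, 11.15 and 10.80 in the floxed samples, and rose 3.15-fold (adjusted p = 0.011). The surface proteoglycan Sdc1 had 6.59, 6.93 and 8.43 in the deleted samples against 5.46, 5.53 and 5.58 in the floxed samples (adjusted p = 0.115, and 0.035 without deleted 3). Tnfrsf17, the plasma cell receptor BCMA, had 4.23, 4.43 and 5.50 in the deleted samples and 3.49, 4.05 and 3.22 in the floxed samples. All floxed samples and deleted 1 lay below the median of all probe sets, 4.29. The part of plasma cells in the differences of the ER genes was not tested.

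**Figure D4:**
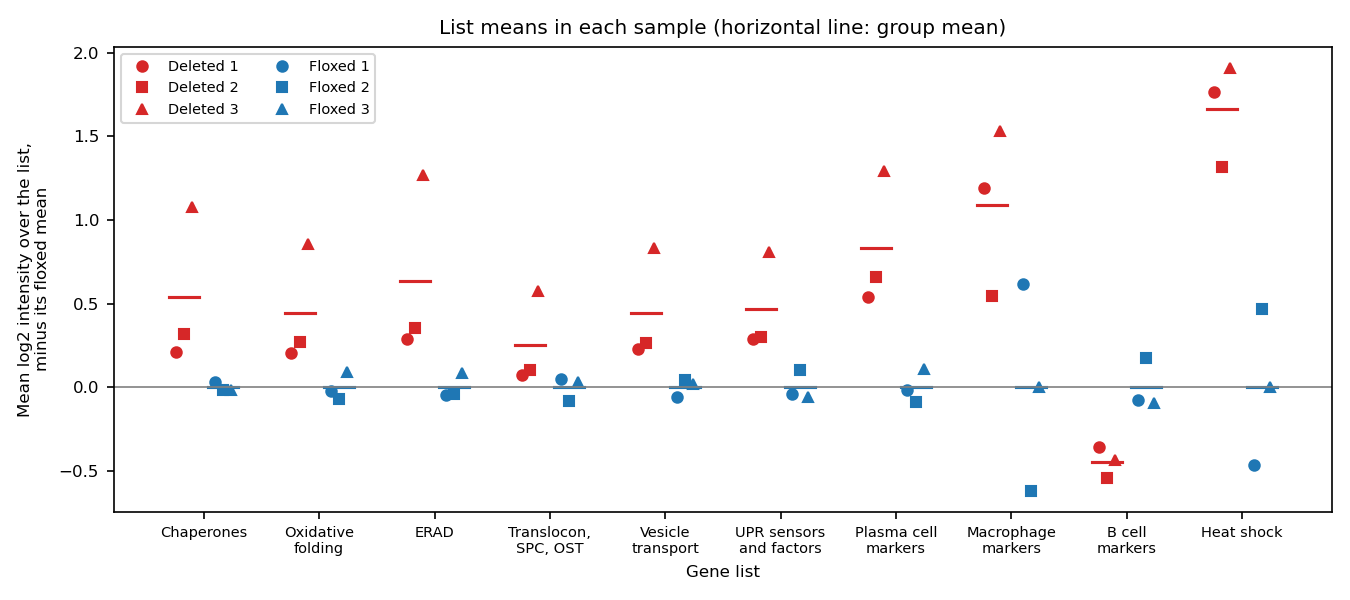
Mean log2 intensity over each gene list minus its floxed mean (vertical axis) in each sample, Crebbp-deleted left and Crebbp-floxed right, with group means as lines. Deleted 3 is the highest sample in the 5 classes of members, the unfolded protein response sensors and factors, the plasma cell markers and the heat shock genes. In each of these lists deleted 1 and 2 lie above all floxed samples. Deleted 3 is also highest in the macrophage markers, where deleted 2 lies below floxed 1.

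Markers of other cells and of cytosolic stress were set beside these values. Of 14 macrophage markers 13 were higher and 1 lower (median 1.04, 0 passed limma's test). At an unadjusted p under 0.05 7 of them were higher, where 7.96% of all genes were. Relative to the floxed mean, their mean stood at 1.19, 0.55 and 1.53 in deleted 1, 2 and 3, against 0.62, −0.62 and −0.0015 in floxed 1, 2 and 3. Their summed intensity was 2352 to 4468 in the deleted samples and 936 to 2252 in the floxed samples. All 9 measured B cell markers were lower (median −0.27), with 20207 to 21883 in the deleted samples and 25372 to 30997 in the floxed samples, and Cd79a passed the test. The T and NK cell markers had a median difference of 0.06 and sums of 1078 to 1151 in the deleted samples and 979 to 1268 in the floxed samples. The granulocyte, erythroid and platelet markers had a median of −0.04, means of −0.63, −0.01 and 0.65 in deleted 1, 2 and 3 against 0.06, −0.52 and 0.46 in floxed 1, 2 and 3, and sums of 133 to 548 in the deleted samples and 144 to 396 in the floxed samples. All 11 measured cytosolic heat shock genes were higher (median 1.39), and 3 passed limma's test over all genes, where 0.781% of all genes did. Their mean stood at 1.77, 1.32 and 1.91 in deleted 1, 2 and 3, against −0.47, 0.47 and 1.2e-05 in floxed 1, 2 and 3. The median difference of the heat shock genes without deleted 3 was 1.37. The part of macrophages, of B cell subsets or of heat shock in the ER differences was not tested.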

How the data were processed

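Per the labels, RNA of bead-purified splenic B cells was hybridised to Affymetrix arrays. The deposited values are intensities on a linear scale (up to 17022) that the authors made with RMA, per the submitters' processing notes, and they were log2-transformed here. The number of arrays limits the precision. Probe sets with 1 gene symbol in the platform annotation were used (34945 of 45101, without 64 control sets), and the set with the highest mean stood for each of 18193 genes. The Entrez IDs of 34741 were in a RefSeq table (GRCm38.p6). The comparison used lmFit and eBayes of limma 3.58.1 under R 4.3.3 (two-sided), with Benjamini-Hochberg adjustment over all genes and a threshold of 0.05. An exact permutation of 3 against 3 cannot go below 0.1 and was not used. The procedure was tested on simulated data in which both groups had the same spread. Among the members the median SD was 0.32 in the deleted and 0.13 in the floxed samples, a case which that test does not cover. The members, lists and tests were chosen with earlier results of these data known. Genes given by sample are, per class, the 4 members with the smallest p and the lowest, plus Hspa5, Hsp90b1 and Sec61a1. Of the other pathway lists up to 3 genes each with the smallest p are named, plus Xbp1, Atf6, Ern1 and Eif2ak3, and Crebbp checks the labels. Jchain, Sdc1, Tnfrsf17, Pou2af1, Tnfrsf13b, Irf4, Cd79a, Ms4a1, Atf6b, Ppp1r15a, Ddit3, Atf4 and Trib3 were picked from their lists after their values were seen. Other members are given by their differences. The ATTGG form of the promoter element was added after the values were seen. Alternatives covered normalization, dim genes, probe set choice, limma settings, threshold, a replicate block, sex and leaving out each sample. Figures were drawn with matplotlib 3.10.9.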

Additional observations from a re-analysis of the deposited data

How the results depend on the processing

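Limits: 3 samples a group, no detection calls, deleted 3 apart from the rest, and groups that differ in sex. The median difference of the members stayed positive in all alternatives, between 0.19 (array weights) and 0.32, and between 0.13 and 0.40 when single samples were left out. Members called over all genes were 0 with all samples, 1 (Ssr3) with the mean of all probe sets, 1 (Ssr3) with array weights and 2 (Fkbp11 and Ssr3) at an adjusted p under 0.1, and 0 whenever a sample was left out. At an unadjusted p under 0.05, 19 members were higher with all samples, 11 with sex as a term, and 7 to 23 with single samples left out. Genes called over all genes by limma were 142, then 291 with array weights, 449 at an adjusted p under 0.1, 37 with sex as a term and 0 to 226 with single samples left out (0 without floxed 1, where 1064 genes were higher at an unadjusted p under 0.05, and 226 without floxed 3). The replicate numbers did not pair the samples (correlations of deviations 0.05, 0.08 and −0.07); with the replicate block the genes called over all genes were 126, 0 of them members, and 22 members were higher at an unadjusted p under 0.05. P4ha1 passed at 0.047 with all samples and missed the threshold with the replicate block (0.056), among genes above the median (0.051), with the mean of all probe sets (0.0523), with sex as a term (0.105) and without any sample but floxed 3 (0.0758 to 0.172). Among 28 members given by sample, 4 (Calr, Derl1, Ero1b and Sec31a) changed sign in some alternative, without passing. The causes were not tested.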
